A study of Mus musculus with 2 samples.

Results

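Granzyme A, granzyme B and granzyme K (Gzma, Gzmb, Gzmk), perforin (Prf1), Nkg7, cathepsin W (Ctsw), Fas ligand (Fasl) and the receptor Fas are the genes of the granule and Fas routes by which lymphocytes kill other cells. They were chosen by name, and all 8 were found among the 31053 genes listed in the count tables. The tables hold single-cell RNA counts from handpicked pancreatic islets of wild-type NOD/ShiLtJ mice. Mice of this strain become diabetic through their own immune system. All mice were 15 weeks old. One group ate a diet with 16% HC and 4% gluten and the other a diet with 20% HC, so every animal received HC (the labels do not spell this out) and only the former received gluten. No transgene, deletion or drug was part of either group. Islets of 3 mice were pooled into 1 library per diet. Spread between mice was therefore not measured, no p-value is given, and each interval printed is a 95% interval for counting error only (exact Poisson for levels, exact binomial for ratios and exact Clopper-Pearson for shares). Mouse, pool and diet cannot be told apart.

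Cytotoxic T cells and natural killer (NK) cells store granzymes and perforin in secretory granules. On contact with a target, perforin opens the target's membrane and granzymes, which are serine proteases, enter and cut proteins inside it. Fas ligand on the lymphocyte instead binds Fas on the target and starts caspase-driven death. In islets under autoimmune attack both routes have been studied as ways in which T cells kill beta cells.

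The gluten library held 88268070 UMIs in 8200 barcodes and the HC library 116900677 UMIs in 7758 barcodes, where a UMI is 1 counted RNA molecule. Filters kept 7122 and 7111 cells (median depth 6401 and 5460 UMIs). The libraries shared 15 barcode sequences. Cells were sorted into gates by UMIs of marker genes, none of which is among the 8. With gluten and with HC alone respectively there were 326 and 553 CD8 T cells, 243 and 613 CD4 T cells, 593 and 943 T cells with no UMI of either coreceptor, 60 and 65 gamma delta T cells, 26 and 11 NK cells, 1038 and 1150 B cells, 1109 and 1371 beta cells and 1181 and 619 alpha cells. The NK gate was thus very small. Markers not used for gating were higher inside than outside in both libraries in each gate that was checked except the gamma delta T gate, where not all were (Sox13 had no UMI with gluten). The gate of T cells with neither coreceptor was not checked in this way.

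Levels below are CPM, the UMIs of a gene for every 1000000 UMIs of the gate. Granzyme A, a trypsin-like protease (ENSMUSG00000023132, chr13:113093825-113100981, minus strand), had its highest levels in the NK and gamma delta T gates, in the latter from few cells. NK cells had 1974 CPM (270 UMIs) with gluten and 1815 CPM (81 UMIs) with HC alone, against 45.2 and 131 CPM in CD8 T cells. In gamma delta T cells the level was 750 CPM with gluten, below NK cells, and single cells held 67 and 50 of the 128 UMIs. With HC alone it was 2471 CPM (2255 to 2702), not separated from NK cells (1441 to 2256) by the intervals. There 416 of 479 UMIs lay in 1 cell, and 332 CPM remained without that cell. A further 60 lay in another cell. The gluten cell with 50 UMIs and the HC cell with 60 held 2 and 4 CD3 UMIs, beside 17 and 38 UMIs of NK markers. The NK level was 43.7-fold the CD8 T level with gluten (log2 5.45, interval 5.04 to 5.88) and 13.8-fold with HC alone (3.79, 3.43 to 4.14). A Gzma UMI was found in 65.4% and 45.5% of NK cells, but in only 1.84% and 2.35% of CD8 T cells. In the gamma delta T gate the shares were 11.7% (7 of 60 cells) and 6.15% (4 of 65). When every cell was thinned to 1500 UMIs, leaving out shallower cells (6 and 2 of the NK cells), the NK shares were 55.0% (31.5 to 76.9) and 33.3% (7.49 to 70.1). In B cells, which should lack the gene, the unthinned shares were 0.193% and 0.0870% (median depth 2114 and 2676 UMIs, against 2686 and 3335 in CD8 T cells).

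Granzyme B (ENSMUSG00000015437, chr14:56258838-56262260, minus strand) cuts after aspartate and can activate caspases. Its level was 71.5 CPM (57.8 to 87.4) in CD8 T cells with gluten and 78.6 CPM (68.7 to 89.7) with HC alone. CD4 T cells had 28.0 and 16.5 CPM, so that CD8 T cells were 2.56-fold (log2 1.35, 0.72 to 2.03) and 4.76-fold (2.25, 1.77 to 2.76) higher. In NK cells the levels were 65.8 and 359 CPM, from 9 and 16 UMIs only. A Gzmb UMI was found in 8.28% and 6.69% of CD8 T cells (4.59% and 3.72% after thinning). It was found in 0 of 1038 B cells with gluten, which, taken as 3 counts, allows a share of cells with a UMI of up to 0.289%, and in 1 of 1150 with HC alone.

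Granzyme K, another trypsin-like protease (ENSMUSG00000042385, chr13:113171608-113225908, minus strand), was distributed differently from granzyme A. It led in CD8 T cells at 172 CPM (151 to 196) with gluten and 178 CPM (163 to 194) with HC alone. CD4 T cells had 48.7 and 61.8 CPM, a 3.54-fold (log2 1.82, 1.37 to 2.31) and 2.88-fold (1.52, 1.26 to 1.79) difference. T cells with neither coreceptor had 49.0 and 33.2 CPM, not separated from CD4 T cells with gluten and below them with HC alone. Gamma delta T cells held 2 and 4 Gzmk UMIs and NK cells 2 and 1. The annotated gene overlaps Esm1 on the opposite strand. After thinning, 20.0% (15.7 to 24.9) and 16.4% (13.4 to 19.8) of CD8 T cells had a Gzmk UMI, against 5.86% and 5.43% of CD4 T cells.

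Perforin (ENSMUSG00000037202, chr10:61297833-61304680, plus strand) makes the pore through which granzymes enter. NK cells had 132 CPM (18 UMIs) and 314 CPM (14 UMIs), and CD8 T cells 40.6 CPM (54 UMIs) and 68.1 CPM (193 UMIs). CD8 T cells exceeded CD4 T cells 2.45-fold with gluten (log2 1.29, 0.47 to 2.20) and 3.68-fold with HC alone (1.88, 1.41 to 2.37). Prf1 in gamma delta T cells, at 41.0 and 103 CPM, was not separated from CD8 T cells by its intervals in either library.

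Nkg7, a granule membrane protein needed for granule release (ENSMUSG00000004612, chr7:43437073-43438249, plus strand), was detected in most cells of 3 gates. With gluten and with HC alone, 88.7% and 86.3% of CD8 T cells, 71.7% and 78.5% of gamma delta T cells and 73.1% and 81.8% of NK cells had a UMI, against 27.6% and 25.1% of CD4 T cells. Its level in CD8 T cells, 1757 and 1731 CPM, was 4.02-fold (log2 2.01, 1.86 to 2.16) and 4.36-fold (2.12, 2.03 to 2.22) that of CD4 T cells. Cathepsin W, a cysteine protease of cytotoxic lymphocytes (ENSMUSG00000024910, chr19:5465043-5468507, minus strand, overlapping Fibp on the opposite strand), had another order. It was higher in gamma delta T cells, at 568 and 619 CPM, than in CD8 T cells, at 306 and 302 CPM, a 1.86-fold (log2 0.89, 0.56 to 1.22) and 2.05-fold (1.04, 0.75 to 1.31) difference. NK cells had 249 and 381 CPM, not separated from CD8 T cells in either library, and CD4 T cells 92.2 and 102 CPM. In the B cell, macrophage, endothelial and endocrine gates no member but Fas exceeded 2.90 CPM.

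**Figure D1:**
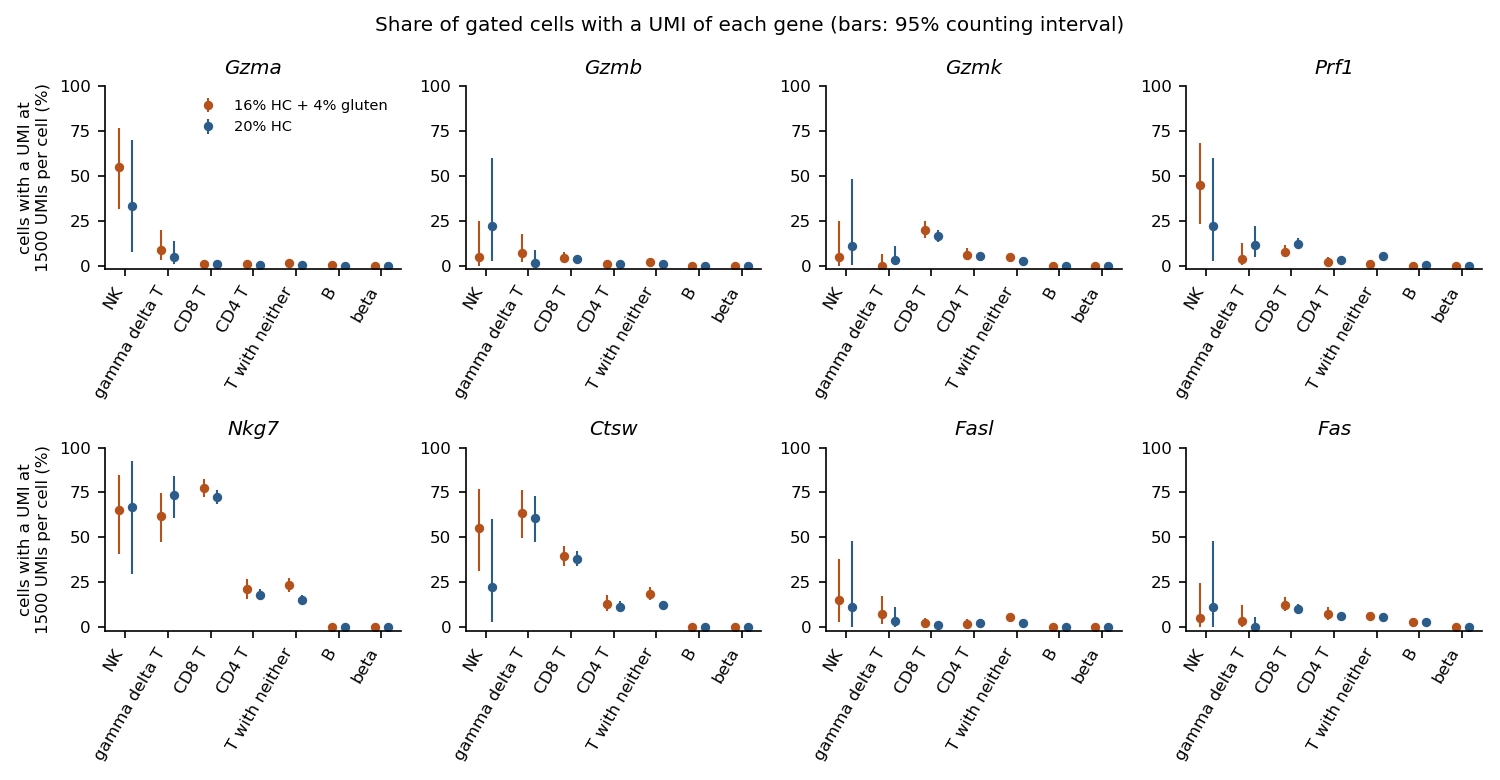
Share of cells with at least 1 UMI of each gene after thinning to 1500 UMIs per cell (y axis, percent), by gate (x axis), for the gluten library (brown) and the HC library (blue). Points are single libraries and bars are 95% Clopper-Pearson intervals for counting error. Gzma stands highest in NK cells (55.0% and 33.3%), Gzmk in CD8 T cells with gluten (20.0%), while B and beta cells lie near 0 for the granule genes.

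The promoters of 4 genes are printed because they hold one each of the patterns above: Gzmb and Prf1 as effector genes of CD8 T and NK cells, Nkg7 as the gene found in most cytotoxic cells, and Fas as the receptor read in many cell types. They are RefSeq sequences on GRCm38.p6, from 250 bases before to 50 bases after the start, available for 7 of the 8 genes (not for Ctsw). Capitals mark matches, on either strand, to TGTGGT (a RUNX core motif), TGANTCA (AP-1) and TCACAC (a T-box core), and no 2 of these overlap here.
Gzmb (chr14:56262285-56262584, minus strand): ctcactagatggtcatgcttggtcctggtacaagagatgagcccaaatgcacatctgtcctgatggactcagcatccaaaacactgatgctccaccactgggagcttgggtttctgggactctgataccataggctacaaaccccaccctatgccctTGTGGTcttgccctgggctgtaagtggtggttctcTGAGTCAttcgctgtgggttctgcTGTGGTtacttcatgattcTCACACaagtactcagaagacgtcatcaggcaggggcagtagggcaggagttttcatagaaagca
Prf1 (chr10:61297586-61297885, plus strand): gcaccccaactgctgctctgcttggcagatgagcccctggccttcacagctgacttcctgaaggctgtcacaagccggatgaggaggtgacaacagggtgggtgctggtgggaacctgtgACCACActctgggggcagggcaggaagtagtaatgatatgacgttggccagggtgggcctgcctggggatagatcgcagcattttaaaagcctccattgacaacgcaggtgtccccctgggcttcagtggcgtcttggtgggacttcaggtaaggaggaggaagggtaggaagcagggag
Nkg7 (chr7:43436888-43437187, plus strand): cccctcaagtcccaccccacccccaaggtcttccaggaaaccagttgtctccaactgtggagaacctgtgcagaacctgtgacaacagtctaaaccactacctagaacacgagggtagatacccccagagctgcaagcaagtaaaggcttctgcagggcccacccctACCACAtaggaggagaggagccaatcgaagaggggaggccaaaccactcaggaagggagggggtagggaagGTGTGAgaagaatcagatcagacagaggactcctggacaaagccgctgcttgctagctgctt
Fas (chr19:34290409-34290708, plus strand): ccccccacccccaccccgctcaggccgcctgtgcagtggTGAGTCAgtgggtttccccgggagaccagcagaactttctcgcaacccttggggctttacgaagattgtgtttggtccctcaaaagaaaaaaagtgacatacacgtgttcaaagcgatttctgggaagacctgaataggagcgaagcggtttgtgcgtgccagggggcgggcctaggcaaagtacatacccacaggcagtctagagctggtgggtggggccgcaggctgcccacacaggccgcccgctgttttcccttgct
The Gzmb window held 4 matches (2 RUNX, 1 AP-1 and 1 T-box), the Nkg7 window 2 (1 RUNX and 1 T-box), the Prf1 window 1 (RUNX) and the Fas window 1 (AP-1). Of the 7 windows, 4 held the RUNX letters, 2 the AP-1 letters and 3 the T-box letters. Over 32851 promoter windows of the same length these letters occurred in 16.8%, 7.81% and 14.5%. A match is a string of letters, not evidence of binding.

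Granzyme A came in very large amounts from very few cells. In the HC library 1 CD8 T cell held 312 of the gate's 372 Gzma UMIs, and these made up 7.19% of that cell's 4340 UMIs. The same cell held 50 Gzmb UMIs, 60 UMIs of CD3 genes and no Prf1 UMI. One cell of the HC gamma delta T gate held 416 of 479 Gzma UMIs, or 9.73% of its 4275 UMIs. It held all 50 Gzmb UMIs of its gate, 2 Prf1 UMIs, 42 CD3 UMIs, 6 UMIs of the CD8 genes, 9 of Trbc, 1 of Trdc and none of the NK markers. It thus carried RNA of a beta chain receptor gene beside 1 Trdc UMI. No cell of the gluten library came near these counts: its highest were 67 in a gamma delta T cell, 41 in an NK cell, 35 in a CD4 T cell and 32 in a CD8 T cell. Cells with 10 or more Gzma UMIs numbered 24 with gluten, of which 10 were in the NK gate, and 11 with HC alone, of which 3 were.

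**Figure D2:**
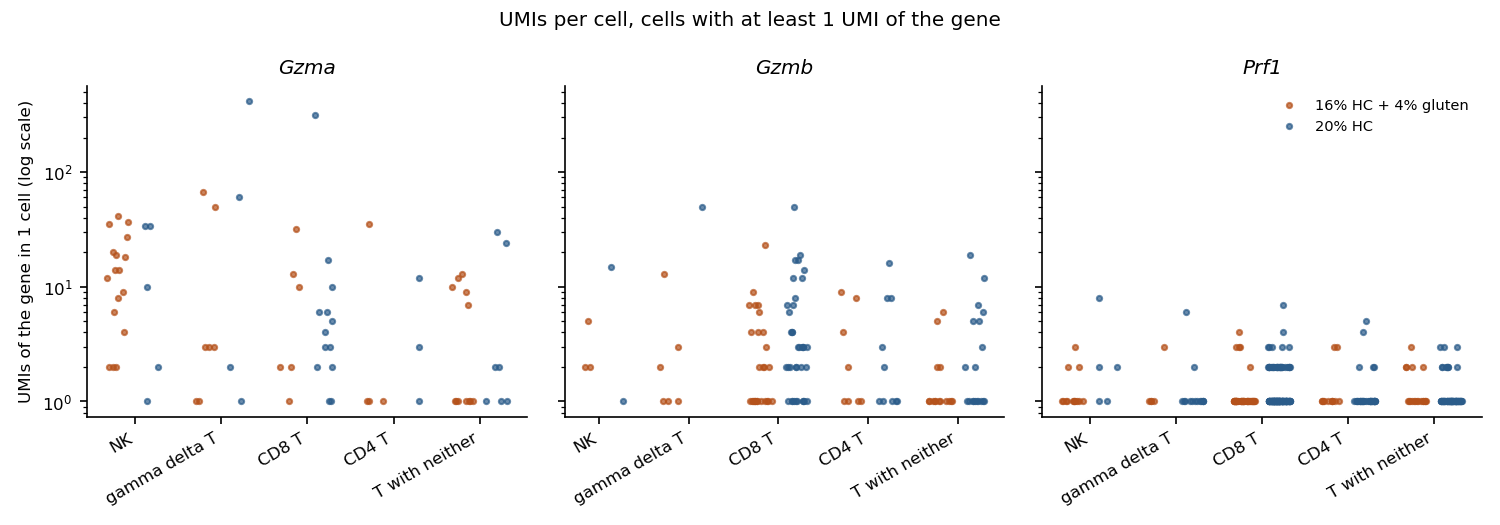
UMIs of Gzma, Gzmb and Prf1 in each cell with at least 1 UMI (y axis, log scale), by gate (x axis), for the gluten library (brown) and the HC library (blue). Each point is 1 cell, with sideways jitter only. The 2 highest Gzma points, 416 and 312 UMIs, are cells of the HC library, whereas Prf1 reached at most 8 UMIs in a cell.

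Between the diets, the granule genes Gzma and Prf1 of CD8 T cells had intervals without 0 over the whole gate, and those of Gzmk, Nkg7, Ctsw and Gzmb included 0. A gene was taken as measured if the library with its higher CPM held at least 50 UMIs of it, and 2-fold was the limit for calling it apart. Of the 7 genes measured in CD8 T cells (all but Fasl) 1 was 2-fold apart, beside 4.65% of the 5157 genes measured there. That gene was Gzma, at 45.2 CPM with gluten and 131 CPM with HC alone (log2 gluten over HC -1.54, -1.96 to -1.14). Without the cell with the most Gzma UMIs in each library its levels were 21.1 and 21.2 CPM (-0.00, -0.71 to 0.67), so 1 cell carried the whole difference. Gzmk (log2 -0.04, -0.28 to 0.18), Nkg7 (0.02, -0.05 to 0.09), Ctsw (0.02, -0.16 to 0.19) and Gzmb (-0.14, -0.50 to 0.22) had the intervals that include 0, which does not show that these genes were alike within kinds of CD8 T cell. The median over all measured genes of the gate was -0.14.

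Perforin was lower with gluten in CD8 T cells. It counted 40.6 CPM (30.5 to 53.0) with gluten and 68.1 CPM (58.8 to 78.4) with HC alone, a log2 ratio of -0.74 (-1.21 to -0.30). A Prf1 UMI was found in 13.5% of CD8 T cells (44 of 326) with gluten and 26.2% (145 of 553) with HC alone. At 1500 UMIs per cell the shares were 7.87% (5.11 to 11.5) and 12.3% (9.63 to 15.4), whose intervals overlap. The value did not rest on 1 cell: without the top cell of each library it was -0.81 (-1.29 to -0.35). Prf1 was 1 of 3 measured members whose interval left out 0 in this gate, with Gzma and with Fas in the other direction, beside 27.5% of all measured genes. In T cells with neither coreceptor Prf1 had 15.3 and 29.1 CPM (-0.93, -1.63 to -0.27). Gamma delta T cells had 41.0 and 103 CPM from 7 and 20 UMIs (-1.33, -2.82 to -0.03), and NK cells 132 and 314 CPM from 18 and 14 UMIs (-1.25, -2.34 to -0.13). Without the top cells the NK ratio was -0.34 (-1.79 to 1.31) and the gamma delta T ratio -1.64 (-3.70 to 0.03), so these intervals included 0. With Leiden clusters in place of the gates the gamma delta T ratio was 0.84, higher with gluten. Prf1 had too few UMIs in the gamma delta T and NK gates to count as measured. In CD4 T cells the levels, 16.6 and 18.5 CPM, were not separated (-0.16, -1.08 to 0.69).

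Acinar cell transcripts, which mark pancreatic RNA outside these cells, stood at 646 CPM in CD8 T cells with gluten and 66.3 CPM with HC alone. With cells of 10 or more acinar UMIs left out, the Prf1 ratio in CD8 T cells was -0.88. CD8 T cells with a UMI of the division genes Mki67 or Top2a had less Ctsw than the others, 0.717-fold with gluten (log2 -0.48, -0.82 to -0.15) and 0.494-fold with HC alone (-1.02, -1.25 to -0.79). Gzmk was higher in them with HC alone, 1.65-fold (0.72, 0.46 to 0.98), and 1.28-fold with gluten with an interval that includes 0 (0.36, -0.04 to 0.76). Gzmb was lower in them with HC alone, 0.655-fold (-0.61, -1.05 to -0.19), and 1.19-fold with gluten (0.25, -0.40 to 0.88). Intervals of Prf1, Nkg7 and Fas included 0 in both libraries. A cell without a UMI of a marker can still express it.

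In CD4 T cells none of the 4 measured members was 2-fold apart, beside 5.09% of 4775 genes. Gzma, with 38 and 16 UMIs not counted as measured, had 39.4 and 6.30 CPM (log2 2.64, 1.77 to 3.59), and 35 of the 38 UMIs lay in 1 cell. Gzmb was also read by Foxp3, the factor that marks regulatory T cells. With gluten it had 9.18 CPM in cells with a Foxp3 UMI, from 1 UMI, and 30.4 CPM in those without. That 1 UMI is too few to give a direction. With HC alone the levels were 64.4 and 5.34 CPM. Among CD4 T cells with a Foxp3 UMI there was 1 Gzmb UMI in 22 cells with gluten and 31 in 59 cells with HC alone (16 of them in 1 cell), and among those without there were 26 in 221 cells (9 and 8 of them in 2 cells) and 11 in 554 cells (8 of them in 1 cell). The T cells with neither coreceptor had 7 measured members, none 2-fold apart beside 6.13% of 5728 genes. Gzmk (log2 0.56, 0.12 to 1.01), Nkg7 (0.49, 0.34 to 0.63), Ctsw (0.52, 0.28 to 0.75) and Gzma (0.78, 0.24 to 1.33) were higher there with gluten. With Prf1, that made 5 of 7 whose interval left out 0, beside 34.4% of genes. T cell clusters without a name that came almost wholly from 1 library (27 and 613 cells, and 274 and 23) were also found, and their part in these ratios was not tested.

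Gamma delta T cells had 2 of 4 measured members 2-fold apart, Gzma at 750 and 2471 CPM (log2 -1.72, -2.01 to -1.44) and Gzmb at 123 and 258 CPM (-1.07, -1.88 to -0.31), beside 10.2% of 509 genes. Both differences came from the 1 cell described above. Without the top cell of each library Gzma had 361 and 332 CPM (0.12, -0.41 to 0.65), and Gzmb 8 UMIs against 0. Nkg7 (-0.11, -0.37 to 0.16) and Ctsw (-0.12, -0.53 to 0.27) were not separated. In NK cells neither of the 2 measured members was 2-fold apart, beside 26.8% of 339 genes: Gzma had a ratio of 0.12 (-0.24 to 0.50), which was 0.63 (0.18 to 1.12) without the top cells and -0.57 with no CD3 UMI allowed, and Nkg7 one of -0.77 (-1.24 to -0.29).

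**Figure D3:**
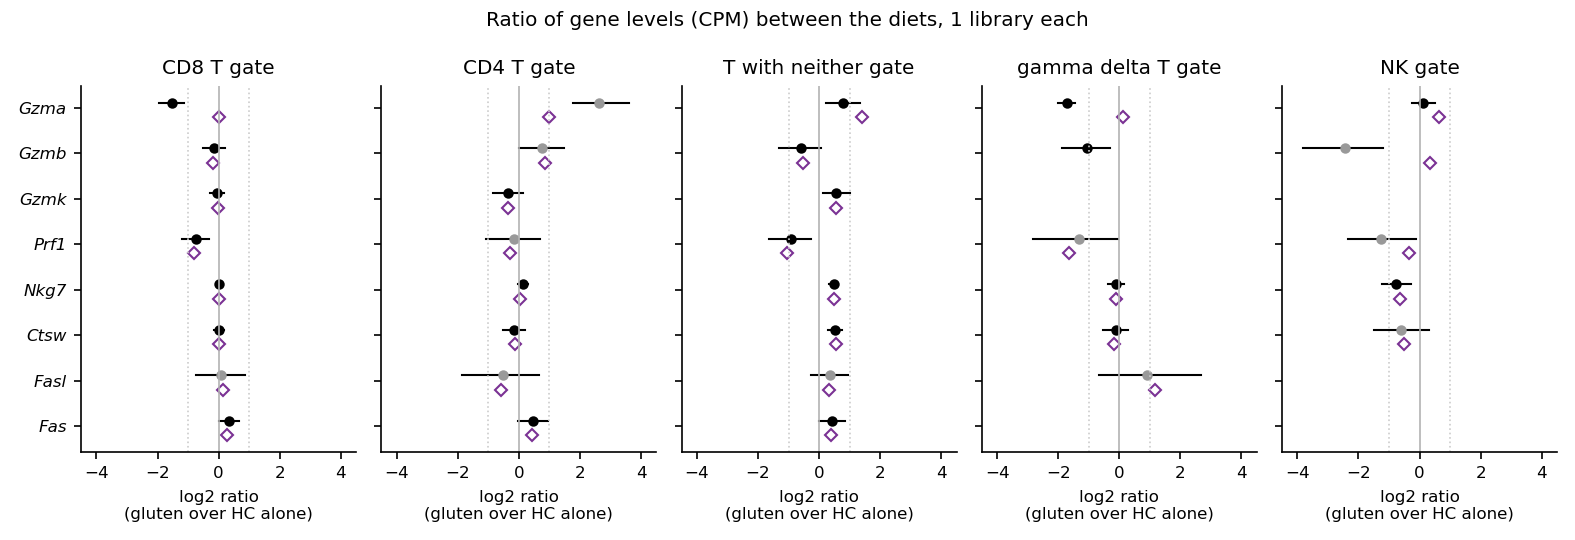
Log2 ratio of the CPM with gluten over the CPM with HC alone (x axis) for each gene (y axis) in 5 gates. Dots with lines are the ratio and its 95% counting interval (black where measured, grey where below 50 UMIs), open diamonds the ratio without the cell with the most UMIs in each library, dotted lines a 2-fold difference, and genes with under 10 UMIs are left out. The CD8 T value of Gzma moves from -1.54 to -0.00 without its top cells, while that of Prf1 goes from -0.74 to -0.81.

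Genes of the lytic route were often not seen in the same cell at this depth. At 1500 UMIs per cell, 72 of 305 CD8 T cells with gluten (23.6%) and 103 of 537 with HC alone (19.2%) had a UMI of any of the 3 granzymes. Of the 24 and 66 cells with Prf1, 8 and 19 also had a granzyme UMI and 16 and 47 had none. Gzmb and Gzmk were found together in 3 and 9 cells, out of 14 and 20 with Gzmb and 61 and 88 with Gzmk. In thinned NK cells all 9 and 2 cells with Prf1 also had a granzyme UMI, as did 55.0% and 44.4% of the whole gate. These counts were not set against those given by each gene's own share, so they do not show the genes kept apart. A gene absent from a thinned cell may be present below this depth.

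Fas ligand (ENSMUSG00000000817, chr1:161780689-161788495, minus strand) was scarce everywhere. CD8 T cells had 21 and 42 UMIs, or 15.8 CPM (9.78 to 24.2) and 14.8 CPM (10.7 to 20.0), with a log2 ratio of 0.09 (-0.74 to 0.88). Gamma delta T cells had 58.6 and 31.0 CPM from 10 and 6 UMIs, CD4 T cells 8.29 and 11.8 CPM from 8 and 30, NK cells 36.6 and 22.4 CPM from 5 and 1, and T cells with neither coreceptor 24.5 and 19.3 CPM from 40 and 57. The CD8 and CD4 T gates were not separated in either library (log2 0.93, -0.30 to 2.32 and 0.33, -0.38 to 1.05). No Fasl UMI was counted in 1109 and 1371 beta cells, which, taken as 3 counts, allows shares of cells with a UMI of up to 0.271% and 0.219%, nor in B cells. These limits do not bound the share of cells that express the gene.

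Fas (ENSMUSG00000024778, chr19:34290666-34327772, plus strand), the receptor, was spread over many cell types. Endothelial cells had 118 CPM (102 to 136) with gluten and 104 CPM (85.7 to 126) with HC alone, and CD8 T cells 94.1 CPM (78.3 to 112) and 74.4 CPM (64.7 to 85.2). The endothelial level was 1.25-fold (log2 0.33, -0.01 to 0.66) and 1.40-fold (0.49, 0.14 to 0.83) that of CD8 T cells, so the pair was separated with HC alone only. CD4 T cells had 58.0 and 42.1 CPM, T cells with neither coreceptor 50.9 and 37.9 CPM, B cells 26.5 and 21.8 CPM and macrophages 17.7 and 22.7 CPM. Gamma delta T cells (4 and 2 UMIs) lay below CD8 T cells by the intervals in both libraries, and NK cells (3 and 2) with gluten only. Both gates held too few UMIs to be separated from CD4 T cells. Delta cells (3 and 3 UMIs) had 0.583 and 0.857 CPM, not separated from beta cells by the intervals. The alpha level was 9.32-fold (log2 3.22, 1.62 to 5.53) and 7.54-fold (2.91, 1.30 to 5.23) the delta level. CD8 T cells exceeded CD4 T cells 1.62-fold (log2 0.70, 0.23 to 1.18) and 1.77-fold (0.82, 0.48 to 1.17). Fas in CD8 T cells was slightly higher with gluten (log2 0.34, 0.01 to 0.66), but not without the top cells (0.27, -0.08 to 0.60). In endothelial cells the diets were not separated (0.17, -0.18 to 0.53).

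Among endocrine cells, alpha cells carried more Fas than beta cells. Alpha cells had 5.43 CPM (73 UMIs, 5.76% of cells) and 6.46 CPM (61 UMIs, 9.21%), and beta cells 0.444 CPM (15 UMIs, 1.17%) and 0.519 CPM (28 UMIs, 1.31%). The alpha level was 12.2-fold (log2 3.61, 2.80 to 4.52) and 12.4-fold (3.64, 2.97 to 4.34) the beta level. Hormone transcripts took 61.6% and 62.0% of beta cell UMIs and 36.4% and 40.2% of alpha cell UMIs. As CPM of the UMIs that were not hormone, Fas stood at 8.54 and 10.8 in alpha cells and at 1.16 and 1.37 in beta cells. For scale against RNA from outside the cell, Nkg7 in beta cells was 0.0135% and 0.0204% of its CD8 T level, Ctsw 0.0679% and 0.0860%, and Fas 0.472% and 0.698%. The scale is not alike for Fas: the T and NK gates held 26.9% and 38.1% of its UMIs, against 72.3% and 85.0% for Nkg7. Whether the Fas UMIs of beta cells came from RNA outside the cell was not tested. Granzymes and Prf1 counted 6 UMIs with gluten and 8 with HC alone over all beta cells. Neither beta cells (log2 -0.22, -1.23 to 0.73) nor alpha cells (-0.25, -0.76 to 0.26) were separated by diet, and no member was 2-fold apart, beside 1.82% of genes measured in beta cells and 2.25% in alpha cells.

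Fas was also set against 8 interferon-induced GTPase genes (Iigp1, Igtp, Irgm1, Irgm2, Gbp2, Gbp3, Gbp6 and Gbp7), since interferon gamma is known to raise Fas in beta cells in culture. Cells were divided at the median GTPase level over both libraries, a range of 1 score and not a cell type. Beta cells above it had 1.11 CPM of Fas (0.576 to 1.95, 12 UMIs) with gluten, and those at or below it 0.131 CPM (0.0269 to 0.381, 3 UMIs). With HC alone the values were 0.610 CPM (0.382 to 0.924) and 0.336 CPM (0.123 to 0.731), and 1 cell held 10 of the 22 UMIs above the median. Without it the value above the median was 0.333 CPM. Alpha cells had 6.91 CPM (4.96 to 9.38) above and 4.26 CPM (2.92 to 6.02) at or below with gluten, and 7.26 CPM (5.40 to 9.54) and 4.14 CPM (1.99 to 7.62) with HC alone. The intervals overlapped in all of these pairs except beta cells with gluten.

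**Figure D4:**
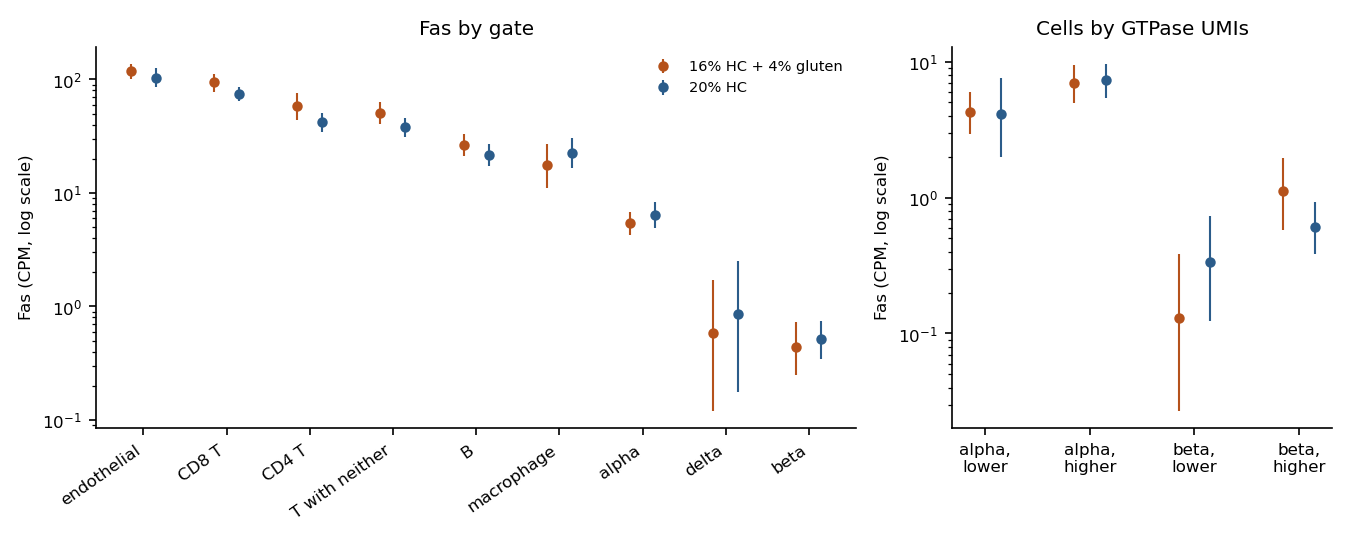
Fas level (CPM, log scale) by gate (left) and in alpha and beta cells at or below (lower) and above (higher) the median level of 8 interferon-induced GTPase genes (right), for the gluten library (brown) and the HC library (blue). Points are single libraries and bars are 95% Poisson intervals. In the left panel, levels with gluten run from 118 CPM in endothelial cells to 0.444 CPM in beta cells.

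Other genes of the same routes were read from a list of 45 genes in 6 roles. Of 7 other granule proteases (Gzmc to Gzmg, Gzmm and Gzmn), none was measured in any gate, and the most abundant in CD8 T cells was Gzmm, at 13.5 and 16.2 CPM. All 9 genes of granule loading and release were measured in CD8 T cells and none was 2-fold apart (median log2 0.09). Serglycin (Srgn), the proteoglycan that packs granzymes, was the most abundant, at 902 and 699 CPM (0.37, 0.26 to 0.47). Among granzyme and protease inhibitors, 4 of 5 were measured and 1 was 2-fold apart, beside 4.65% of measured genes: Serpinb1a, at 13.5 and 35.6 CPM (-1.39, -2.21 to -0.66). The most abundant, Serpinb6a, had 90.3 and 70.5 CPM. None of 3 measured death ligands and cytokines, led by Ifng at 154 and 161 CPM, was 2-fold apart. The same held for 9 measured death receptor and signalling genes, led by the pore-forming Bax at 197 and 208 CPM, and for 6 transcription factors, led by Id2 at 313 and 367 CPM.

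In the target cells, 2 of the listed genes were 2-fold higher with gluten in beta cells, beside 1.28% of measured genes: the transcriptional inhibitor Id2 at 22.0 and 7.38 CPM (log2 1.58, 1.40 to 1.76) and Srgn at 3.11 and 1.15 CPM (1.44, 0.97 to 1.91). Id2 was 1 of 3 measured transcription factors and Srgn 1 of 5 loading and release genes. None of 2 inhibitors, 1 death ligand and 12 death receptor and signalling genes was 2-fold higher. In alpha cells 1 listed gene was, beside 1.59%: the death-signalling kinase Ripk1, at 45.0 and 16.4 CPM (1.45, 1.20 to 1.72). It was 1 of 10 death receptor and signalling genes measured there, beside 5 loading and release genes, 2 inhibitors, 1 death ligand and 2 transcription factors. In beta cells Ripk1 was at 16.1 and 8.10 CPM (0.99, 0.80 to 1.17), just inside the 2-fold line. Srgn, for scale, had 902 and 699 CPM in CD8 T cells and 1480 and 796 CPM in T cells with neither coreceptor. Whether the Srgn UMIs of beta cells came from RNA outside the cell was not tested. Downstream of Fas, the adaptor Fadd had 3.59 and 3.37 CPM in beta cells, Casp8 3.41 and 4.34 CPM, and their inhibitor Cflar 23.8 and 26.8 CPM. Serpinb9, the inhibitor of granzyme B, had 6.79 and 8.08 CPM in beta cells (-0.25, -0.49 to -0.02) and 11.7 and 16.7 CPM in alpha cells (-0.52, -0.85 to -0.19). In T cells with neither coreceptor, Serpinb1a (2.46, 1.83 to 3.13), the release factor Stx11 (1.15, 0.82 to 1.48) and Hopx (1.07, 0.59 to 1.56) were 2-fold higher with gluten, beside 2.76% of measured genes. They were 1 of 4 measured inhibitors, 1 of 9 loading and release genes and 1 of 3 transcription factors. The 1 cytokine and 9 death receptor and signalling genes measured there were not 2-fold higher.

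Over the 10 gates with at least 50 cells in each library (20 values per gene, which share libraries), the genes whose log2 levels ran most like each member were picked among 13542 genes. For Nkg7 they were Ifng (Pearson r 0.991), Cxcr6 (0.987) and Acpp (0.985). Ctsw was closest to Cxcr6 (0.989), Acpp and Gm20069, Fasl to Il18r1 (0.986), Cxcr6 and Ifng, and Gzmb to Gm20069 (0.983), Cxcr6 and Fgf13. Gzmk was closest to the T cell genes Cd6 (0.978), Themis and Pdcd1, Prf1 to Txk (0.981), Ms4a4b and Gm20069, and Gzma to Actn2 (0.987), Tcrg-C4 and Fgf13. Tcrg-C4 is among the genes that define the gamma delta T gate, so its high level there was set in part by the gating. With HC alone 416 of the 479 Gzma UMIs of that gate lay in 1 cell. The NK gate (26 and 11 cells) was too small to be among the 10 gates. Fas ran most like Castor1 (0.944), Myl12a and Fam162a, and its r with the other 7 members lay between 0.35 and 0.55. The points include non-lymphoid gates in which the other 7 members are near 0.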

How the data were processed

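The deposited tables hold raw UMI counts per gene and barcode, which the authors made with Cell Ranger 4.0.0 on the mm10 build, per the submitters' processing notes; which annotation release was used, and how cells were called, is not given in the sources used here. Gene IDs were matched to symbols for 30934 of 31053 genes, positions are GENCODE vM21 on the same assembly, and no column of another sample was found (0). Cells with under 500 UMIs, under 200 genes or over 20% mitochondrial UMIs were left out, and so were the 6% of cells with the highest Scrublet score (455 and 454), since Scrublet's own threshold marked only 3 and 2. T cells had at least 2 UMIs of Cd3d, Cd3e and Cd3g, at most 1 of B cell and 1 of macrophage markers, and under 10% hormone UMIs. CD8 and CD4 T cells had 1 UMI or more of Cd8a or Cd8b1, or of Cd4, and of 1 kind only. Gamma delta T cells had Trdc and at least 2 UMIs of gamma delta genes, and NK cells at least 2 UMIs of NK receptors and at most 1 of CD3. Beta, alpha and delta cells were taken by hormone share. UMIs were summed per gate and library, with no test: 1 library per diet gives no residual spread. UMIs are counted molecules of 3' ends, intervals cover counting error at the 95% level only, and a count of 0 allows 3. The interval of a ratio was tested only on simulated Poisson counts, which do not include UMIs gathered in single cells as seen for Gzma. The members, lists and gates were chosen with earlier results of these data known. Named genes are the 8 members, listed pathway genes 2-fold apart or the most abundant of their role, and the 3 genes most like each member. A division of CD8 T cells by further markers is not reported here. Alternatives were TMM scaling, a limit of 10 UMIs, doublets kept, stricter cell filters, acinar-rich cells left out, other gate limits, Leiden clusters, and, chosen after seeing the data, leaving out the top cell. Python with numpy 2.4.6, scipy 1.17.1, pandas 2.3.3 and scanpy 1.11.5 was used.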

Additional observations from a re-analysis of the deposited data

Results flagged for a closer look

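Some genes had log2 ratios of 1 or more in size, with intervals that leave out 0, in opposite directions in different lymphocyte gates, and the difference between gates was not tested. Gzma was lower with gluten in CD8 T cells (-1.54) and gamma delta T cells (-1.72) and higher in CD4 T cells (2.64), in each case with most UMIs in 1 cell. Serpinb1a, a protease inhibitor, was lower with gluten in CD8 T cells (-1.39) and higher in CD4 T cells (1.40) and T cells with neither coreceptor (2.46). Hopx was higher in T cells with neither coreceptor (1.07) and lower in NK cells (-1.99), and Zeb2 higher in CD4 T cells (1.22) and lower in NK cells (-3.28), where the NK gate has 26 and 11 cells. Gzma in CD4 T cells (38 and 16 UMIs), Serpinb1a in CD4 T cells (12 and 12), Zeb2 in CD4 T cells (47 and 53), and Hopx (10 and 13) and Zeb2 (6 and 19) in NK cells did not reach the 50 UMIs that count as measured in the library with the higher CPM.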

How the results depend on the processing

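No paired analysis was possible because each diet has 1 library. In CD8 T cells the count of members 2-fold apart was 1 under all 9 alternatives listed first in the methods, though with Leiden clusters Gzma turned to 1.64, higher with gluten, and without the top cell of each library the count was 0. In CD4 T cells it rose from 0 to 1 with a limit of 10 UMIs (Gzma) and to 1 when 2 or more coreceptor UMIs were required (Gzmk, -1.67), and in NK cells from 0 to 2 with that limit and to 1 with no CD3 UMI allowed. In gamma delta T cells it fell from 2 to 1 with at least 1000 UMIs and at most 10% mitochondrial UMIs, to 1 with no UMI of other cells' markers, and to 0 with Leiden clusters or without the top cell. There Gzma turned to 1.05 with no UMI of other cells' markers and to 0.12 without the top cell. Gzmb turned to 2.61 and 1.58 respectively, where the 0 UMIs with HC alone were taken as 3. Without the top cell its interval began at 0.94. The cause was not tested beyond the single cells named. Of 216 member ratios under those alternatives, 191 stayed within the counting interval, 22 moved outside and 3 reversed. Prf1 in CD8 T cells ranged from -0.59 (doublets kept) to -0.98 (clusters). In gamma delta T cells Prf1 changed sign with clusters, from -1.33 to 0.84, and is counted among the 22 that moved outside. NK cells could not be named among the clusters. Thinning put 35 of 96 shares outside the thinned interval. Fasl and NK values are limited by depth.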

Other observations

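Cells that fell into no gate held part of the killing-gene RNA. Of all kept cells, the T and NK gates held 79.4% of Gzma UMIs with gluten and 98.9% with HC alone, and 60.8% and 91.8% of Gzmb UMIs. Outside all gates lay 136 and 7 Gzma UMIs and 112 and 33 Gzmb UMIs. With gluten, 95 of those 112 Gzmb UMIs and 1013 of 1412 Nkg7 UMIs were in 255 cells with T cell levels of CD3 and B cell or macrophage UMIs above the limit, and 49 of the 136 Gzma UMIs were in cells without any CD3 UMI.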
